A study of Homo sapiens with 28 samples.

Results

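Collagens and laminins are the main structural proteins of the extracellular matrix. The protein-coding rows of the deposited table whose symbols follow the collagen chain pattern (COL, a number, A, a number) or the laminin chain pattern (LAMA, LAMB or LAMC and a number) number 56 of 58219 rows. A row was kept as a member where its TPM (a length-scaled share of the library's transcripts) was at least 1 in at least 2 of 28 libraries. Of the 56 rows 49 passed, 39 collagen chains and 10 laminin chains. The 7 that did not pass were COL19A1, COL24A1, COL4A4, COL6A5, COL6A6, LAMB3 and LAMB4. COL24A1 was just outside, with 1 library at or above 1 TPM, and COL8A1 just inside, with 2.

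The values come from poly(A) RNA of H9, an established human embryonic stem cell line, either wild type (WT) or SOX1-/- (KO). SOX1 is an early neural transcription factor, and the series concerns its part in the regional identity of neural progenitors. Each genotype was taken as undifferentiated embryonic stem cells (ES, day 0) and on day 4 and day 8 of differentiation under the labels IWP2, CT0.4 or CT1.0, which makes 14 groups of 2 libraries. IWP2 is an inhibitor of WNT secretion, and the labels neither spell out CT nor give its number a unit. Library numbers (1 and 2 for WT, 26 and 48 for KO) are read here as lines. Whether each is 1 clone, and how SOX1 was disrupted, is not stated in the sources used here. Per-library values are listed in the order of these numbers, and values with ± are means with the SD of n = 2 libraries.

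Every collagen is a triple helix of alpha chains. Fibrillar collagens build ropes, type IV collagen builds the sheet of the basement membrane, fibril-associated collagens (FACITs) sit on the surface of fibrils, multiplexins carry sugar chains in basement membrane zones, and transmembrane collagens stay anchored in the cell surface. Laminins are crosses of 1 alpha, 1 beta and 1 gamma chain that polymerise on the cell surface and start basement membrane assembly. In the early embryo the neural epithelium rests on such a membrane, and COL2A1, best known from cartilage, is also made by neural epithelium and notochord.

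Several type IV collagen genes lie head to head, so that 1 stretch of DNA separates the starts of both. COL4A6 (chrX:108155607-108439497, minus strand) and COL4A5 (chrX:108439844-108697545, plus strand; both GRCh38, GENCODE 29) are such a pair, and they are shown here because their levels ran together over the 14 group means (Pearson r 0.929, a description of means that share libraries). The RefSeq starts used here are 380 bases apart. The 250 bases just before the COL4A5 start, chrX:108439588-108439837 of GRCh38.p14 on the plus strand, lie between these starts and outside the annotated exons of both genes. The 3′ end of the printed sequence abuts the COL4A5 start, its 5′ end points towards COL4A6 without reaching it, and capitals mark CCAAT on either strand (CCAAT or ATTGG).

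Stretch before COL4A5: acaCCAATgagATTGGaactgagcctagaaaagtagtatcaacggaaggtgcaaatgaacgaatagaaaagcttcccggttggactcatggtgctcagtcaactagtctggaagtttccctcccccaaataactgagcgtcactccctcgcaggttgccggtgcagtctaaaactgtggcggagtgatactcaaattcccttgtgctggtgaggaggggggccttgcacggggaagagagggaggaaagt

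The stretch holds CCAAT 2 times, GGGCGG 0 times on both strands and 51.2% G or C. Of 35116 RefSeq promoter windows of 300 bases (250 before and 50 after each start), 34.6% hold CCAAT on either strand, 45% GGGCGG and 11.5% TATAAA. Among the 46 member promoters listed there 14 hold CCAAT (30.4%), 27 GGGCGG (58.7%) and 7 TATAAA (15.2%). A match is a description of letters and not of binding. The 2 other head-to-head pairs ran together less closely over the group means, at r 0.562 for COL4A1 with COL4A2 and 0.183 for COL4A3 with COL4A4, whose second gene did not pass the TPM limit. COL3A1 and COL5A2, neighbours on chromosome 2 that point towards each other, reached r 0.88.

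The targeted gene SOX1 was lower in KO, though not at 0, in both libraries of every group but IWP2 on day 4. There WT had 0.907 and 0.990 TPM and KO 0.410 and 1.14. In WT ES cells SOX1 was only at 0.264 and 0.177 TPM, against 0.0238 and 0.0510 in KO. In CT1.0 SOX1 TPM was 84.1 and 98.0 in WT on day 4 and 72.1 and 79.4 on day 8, against 0.705 and 3.08 on day 4 and 1.14 and 2.77 on day 8 in KO. A list of 5 pluripotency genes summed to 3814 to 3989 TPM in ES libraries and 483 to 1107 later. Most of the later sum was LIN28A, at 401 to 954 TPM, while POU5F1 was at 2399 to 2532 TPM in ES libraries and 0.820 to 61.3 later, and NANOG and TDGF1 were below 1 TPM in every later library. A list of 6 neural progenitor genes summed to 221 to 299 in ES libraries and 420.4 to 1394 later. Replicate libraries correlated over genes at r 0.955 to 0.970. The 4 WT libraries of CT0.4 and CT1.0 on day 4 stood apart, with 17694 to 18233 genes at or above 1 TPM against 18876 to 20338 in the other 24. This touches each comparison that uses them. As deposited, the median log2 difference of all genes was 0.13 higher in CT0.4 and 0.18 higher in CT1.0 for KO against WT on day 4 than after scaling the columns by median ratios. The same shift was -0.14 for CT0.4 and -0.22 for CT1.0 against IWP2 in WT on day 4, and 0.18 for CT0.4 and 0.17 for CT1.0 between days 4 and 8 in WT. Elsewhere it was under 0.1. The test was limma on log2(TPM + 1), where changes of low genes are understated, over all 27912 genes that passed the same limit. A gene is called at an adjusted p under 0.05, and every adjusted p below is from this fit unless a setting is named. The p-values thus rest on the spread between the 2 libraries within each group, pooled over all 14 groups, and not on the libraries compared alone. That spread may be technical. In bulk RNA fewer cells of a type and less RNA per cell cannot be told apart.

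The make-up of collagen RNA differed by stage and label. Per library 39 to 41 members reached 1 TPM in ES cells, 30 to 36 on day 4 and 33 to 36 on day 8. In WT ES cells the collagen members summed to 779.9 ± 73.9 TPM, on day 4 to 739 in IWP2, 627 in CT0.4 and 615 in CT1.0, and on day 8 to 1720.5 ± 84.3, 1919 ± 128 and 840.3 ± 5.47. The day 8 sums of IWP2 and CT0.4 thus lay above the ES and day 4 sums of WT, and that of CT1.0 near the ES sum. The fibrillar share of collagen TPM in WT went from 20.1% in ES to 59.9% in IWP2, 48.7% in CT0.4 and 51.5% in CT1.0 on day 8, and COL2A1 alone from 1.89% to 47.5%, 35.7% and 33.0%. The type IV share was largest on day 4, at 33.2%, 28.1% and 33.8% against 15.3% in ES. Laminin members summed to 379 ± 36.5 TPM in WT ES and to 513, 577 and 272 in the same labels on day 8. KO sums on day 8 were 1765, 2044 and 969 TPM for collagens and 625, 704 and 355 for laminins. These sums and shares are descriptions and were not tested.

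**Figure D1:**
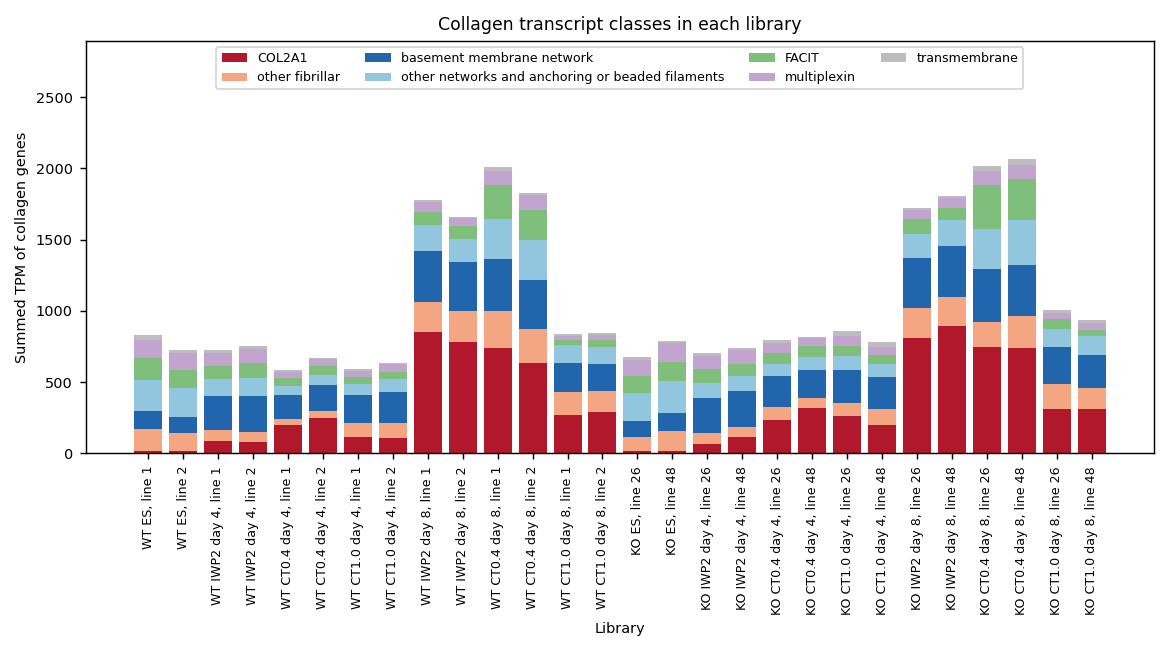
Summed TPM of the collagen members (y axis, starting at 0) in each of the 28 libraries (x axis), stacked by structural class, with COL2A1 drawn apart from the other fibrillar chains. COL2A1 carries most of the fibrillar block on day 8, when it holds 47.5% of WT collagen TPM in IWP2.

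The 6 most abundant members differed by stage. WT ES cells were led by LAMA5 at 176 TPM and COL18A1 at 119.6, followed by COL9A3, COL6A1, COL26A1 and COL1A2. On day 8 the WT lists all began with COL2A1, followed by LAMA5, COL11A1, COL4A2, LAMC1 and COL26A1 in IWP2, by LAMB2, COL26A1, COL4A5, LAMA5 and LAMA1 in CT0.4, and by COL4A2, LAMA5, LAMB2, COL11A1 and COL4A5 in CT1.0. COL15A1, the other multiplexin, stayed between 0.517 and 5.18 TPM over all libraries and was called in none of the 21 comparisons.

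**Figure D2:**
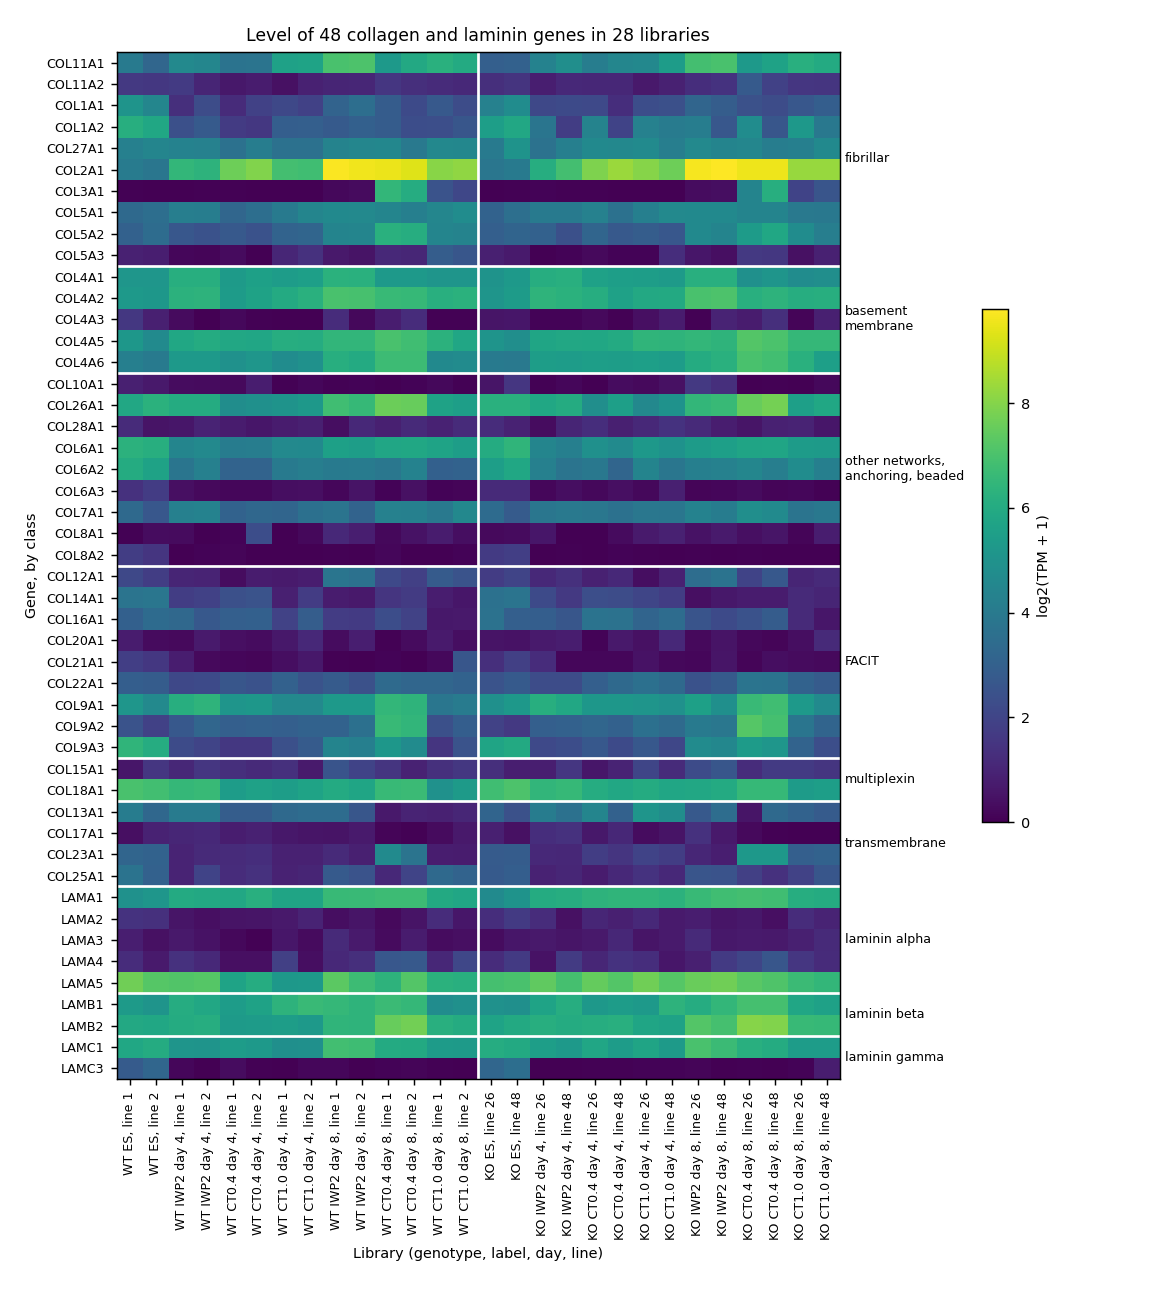
Heat map of 48 of the 49 members (rows, ordered by class) in the 28 libraries (columns, ordered by group), coloured by log2(TPM + 1), with white lines between classes and between WT and KO. COL3A1 is near 0 in ES and day 4 columns and reaches 66.6 to 89.1 TPM in the WT CT0.4 columns of day 8.

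From ES cells to day 4 in WT, the basement membrane chains LAMA1, COL4A1, COL4A5 and COL4A6 and the fibrillar chain COL2A1 rose in every label, and both chains of type I collagen, COL6A1, COL6A2, COL9A3 and COL18A1 fell in every label. The 3 comparisons share the ES libraries, so their values are given side by side and not counted as separate support. Called members were 12 higher and 19 lower of 49 in IWP2 (24.5% and 38.8%, against 20.3% and 14.9% of all genes tested), 6 and 23 in CT0.4 (all genes 12.2% and 17.7%) and 10 and 20 in CT1.0 (all genes 10.2% and 20.8%). The median member log2 fold change was -0.20, -0.57 and -0.52, beside 0.09, 0 and -0.05 for all genes. The laminin gamma chains LAMC1 and LAMC3 were called lower in each label. LAMC3 reached 1 TPM only in the 4 ES libraries, so it passed the TPM limit through ES alone. Its fall after ES follows from that and is no separate support, though it is counted among the lower members.

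Among laminins, LAMA1, the alpha chain of the earliest embryonic basement membranes, had 29.7 and 34.5 TPM in ES and 62.4 and 58.6, 58.0 and 71.5 and 52.2 and 52.1 on day 4 in IWP2, CT0.4 and CT1.0. Every day 4 library lay above both ES libraries, with log2 fold changes of 0.90, 0.99 and 0.69 (adjusted p = 1.08e-05, 4.24e-06 and 0.000181). LAMA5, the alpha chain that succeeds it in many epithelia, had 203 and 149 TPM in ES and 138 and 149, 51.0 and 66.4 and 36.6 and 38.5 on day 4. It was called lower in CT0.4 (-1.56) and CT1.0 (-2.18, adjusted p = 2.89e-06) and not in IWP2 (-0.27, adjusted p = 0.445). The ratio of LAMA1 to LAMA5 TPM was 0.189 in ES and 0.422, 1.11 and 1.39 on day 4. LAMB1 was called higher in IWP2 (0.77) and CT1.0 (1.29), and LAMB2, the beta chain of mature and synaptic basement membranes, lower in CT0.4 (-0.51) and CT1.0 (-0.52). LAMC1, the common gamma chain, fell from 60.6 ± 5.16 TPM to 32.8 ± 0.868, 40.3 ± 1.99 and 29 ± 0.878 (-0.86, -0.57 and -1.04). LAMC3 fell from 7.29 ± 1.75 TPM to 0.0701, 0.135 and 0.0798 (log2 -2.94, -2.86 and -2.93).

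Among type IV chains COL4A6 had 17.6 and 15.3 TPM in ES and 38.3 and 37.3, 29.9 and 34.3 and 26 and 30.4 on day 4 (1.16, 0.92 and 0.74), and its head-to-head partner COL4A5 gave 1.0, 0.90 and 1.16. COL4A1 gave 1.0, 0.32 and 0.34, all called. COL4A2 was called in IWP2 (1.05) and CT1.0 (0.85), with 0.25 and adjusted p = 0.191 in CT0.4. COL4A3, a low chain best known from kidney, fell from 1.42 TPM to 0.119, 0.104 and 0.0217 (-1.07, -1.09 and -1.20). COL18A1, the precursor of endostatin, fell by 0.36, 1.39 and 1.36 on the log2 scale, from 119.6 ± 7.51 TPM to 92.8, 44.9 and 46.2.

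Fibrillar chains went both ways. COL2A1 had 15.9 and 13.5 TPM in ES and 87.7 and 79.4, 199 and 248 and 117 and 110.2 on day 4. Its log2 fold changes of 2.43, 3.83 and 2.87 (adjusted p = 3.26e-08, 1.44e-10 and 4.48e-09) were the highest of all members in each label. COL11A1, which co-assembles with type II collagen, rose in IWP2 (0.94) and CT1.0 (2.04) and gave 0.16 (adjusted p = 0.751) in CT0.4. The chains of type I collagen, the main fibre of connective tissue, fell: COL1A1 from 32.3 and 21.6 TPM to 2.69, 2.00 and 3.07 (-2.98, -3.23 and -2.75), and COL1A2 from 69.0 and 56.8 TPM to 5.02, 2.15 and 6.72 (-3.41, -4.34 and -3.04). COL5A1, which starts type I fibrils, rose in IWP2 (0.73) and CT1.0 (0.82), and its partner chain COL5A2 fell in IWP2 (-0.67) and CT0.4 (-0.65). COL3A1 stayed at or below 0.0751 TPM in every ES and day 4 library of both genotypes.

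Of the other classes, COL9A3, a FACIT chain of cartilage, had 83.6 and 65.8 TPM in ES and day 4 means of 3.39, 2.01 and 5.12, the lowest log2 fold changes of all members (-4.10, -4.64 and -3.63). Its partner COL9A1 instead rose in IWP2 (1.39, 75.9 ± 8.89 against 28.8 ± 7.50 TPM), as did COL7A1, the anchoring fibril of skin (1.29), and COL9A2 was called higher in all 3 labels (0.75, 0.81 and 0.82). COL6A1 and COL6A2, chains of beaded filaments, fell from 74.3 ± 5.87 and 56.7 ± 10.2 TPM, by 1.71, 2.11 and 1.59 for COL6A1 and 1.80, 2.72 and 1.73 for COL6A2. The FACIT COL14A1 fell by 1.98, 1.36 and 2.51. The transmembrane chain COL23A1 fell from 7.91 ± 0.515 TPM to 1.10, 1.36 and 0.856, and COL8A2 from 2.14 TPM to at most 0.0421. Like LAMC3, COL8A2 reached 1 TPM only in the 4 ES libraries and was a member through them alone.

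With either WT line left out, 16 of 31, 17 of 29 and 17 of 30 of these calls passed in every fit in IWP2, CT0.4 and CT1.0. The named calls lost in IWP2, each with its highest adjusted p, were COL5A1 0.227, COL18A1 0.328, COL4A3 0.29, COL6A2 0.0579 and COL1A2 0.185 without WT line 1, and COL9A1 0.0791, COL11A1 0.326, LAMB1 0.276, COL9A2 0.776, COL5A2 0.599 and LAMC1 0.0607 without WT line 2. Those lost in CT0.4 were LAMB2 0.0816, COL4A3 0.359 and COL1A2 0.0862 without WT line 1, and COL4A6 0.089, COL9A2 0.386, COL4A1 0.37, LAMC1 0.29 and COL5A2 0.718 without WT line 2. Those lost in CT1.0 were COL4A3 0.327, COL6A2 0.0527 and COL1A2 0.233 without WT line 1, and LAMB1 0.148, COL4A2 0.0659, COL9A2 0.409, COL5A1 0.179, COL4A6 0.203, COL4A1 0.211 and LAMB2 0.0753 without WT line 2. With median-ratio scaling COL9A2 and LAMB1 in IWP2 and COL5A2 in CT0.4 did not pass (adjusted p = 0.0995, 0.073 and 0.063).

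Between day 4 and day 8 more members were called higher than lower, above all in CT0.4. In CT1.0 the member median lay below that of all genes, and the excess of higher calls there depended on the scaling. In WT IWP2 15 of 49 members were called higher and 5 lower (30.6% and 10.2%, all genes 8.97% and 4.85%). In CT0.4 the counts were 26 and 3 (53.1% and 6.12%, all genes 19.7% and 5.08%), and in CT1.0 12 and 6 (24.5% and 12.2%, all genes 12.2% and 2.45%). Median member log2 fold changes were 0.34, 0.88 and 0.13, beside 0.03, 0.18 and 0.17 for all genes. In CT0.4 the members called higher took in 6 of 10 fibrillar chains, 3 of 5 type IV chains, 5 of 9 FACIT chains (with 1 lower) and both laminin beta chains. The CT comparisons hold the day 4 libraries that stood apart. With median-ratio scaling, calls were 22 higher and 5 lower in CT0.4 and 8 higher and 7 lower in CT1.0.

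Markers of other cell types moved over the same days. In WT CT0.4, 4 of 6 tested mesenchyme genes were called higher and 1 lower: LUM (listed at 0 on day 4, 14.2 and 11.2 TPM on day 8), PDGFRB (2.08), PDGFRA (1.74) and TWIST1 (1.24) rose and THY1 fell (-1.54). PRRX1 was not called and had 3.92 and 2.56 TPM on day 4 and 0.0286 and 1.53 on day 8. The full list summed to 101 and 86.8 TPM on day 4 and to less, 72.8 and 74.8, on day 8 in CT0.4. In IWP2 it summed to 104 and 113 and then 112 and 108, and in CT1.0 to 73.4 and 70.7 and then 65.2 and 59.1. THY1 held most of the TPM of the list on day 4 and was set apart after its values were seen. Without THY1 the list summed to 9.77 and 10.02 TPM on day 4 and 47.8 and 43.3 on day 8 in CT0.4. Also without THY1, it summed to 9.72 and 7.38 and 26.4 and 26.6 in IWP2 and to 11.4 and 11.5 and 13.4 and 13.6 in CT1.0. Of the surface ectoderm genes 4 of 5 were higher and 1 lower in CT0.4, 2 higher and 1 lower in IWP2 and 3 lower in CT1.0. Their sums went from 119.9 and 123 to 297 and 229 TPM in CT0.4, from 136 and 133 to 289 and 279 in IWP2 and from 98.5 and 111 to 43.9 and 55.8 in CT1.0. Here and below these sums were mostly KRT8, KRT18 and KRT19, and the WT ES libraries summed higher, to 538 and 574 TPM. TP63 stayed at or below 0.582 TPM and GATA3 at or below 2.17 in every library. The sums thus do not mark surface ectoderm on their own. Of the neuron genes 4 of 5 were higher in each CT label and 2 of 5 in IWP2, with sums from 116 and 151 to 329.9 and 275 TPM in CT0.4, from 156 and 154 to 313 and 313 in IWP2 and from 124 and 131 to 741 and 607 in CT1.0. Neural crest genes were 2 of 5 higher in CT0.4 and 2 higher and 1 lower in CT1.0. The part of these cell types in the changes of members was not tested.

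COL2A1 rose further in each label. WT day 8 libraries had 854 and 779.8 TPM in IWP2, 737 and 635 in CT0.4 and 267 and 288 in CT1.0, all above the day 4 libraries of the same label (3.27, 1.62 and 1.28; adjusted p = 1.56e-08, 7.55e-06 and 0.000244). COL3A1, the chain of reticular fibres and a ligand of an adhesion receptor in the developing cortex, went from near 0 to 89.1 and 66.6 TPM in CT0.4 (log2 fold change 6.26, SE 0.36, adjusted p = 2.63e-09) and to 4.62 and 3.20 in CT1.0 (2.27), while IWP2 held 0.164 and 0.229. COL5A2 rose in all 3 labels (1.86, 3.57 and 1.26), COL11A1 in IWP2 (2.49) and CT0.4 (1.85), COL1A1 in IWP2 (1.52), COL5A1 in CT0.4 (0.94) and COL5A3 in CT0.4 (0.93) and CT1.0 (1.53). COL6A1 also rose in each label (1.01, 1.7 and 0.93). COL1A2 was called in no label between these days. With a pseudocount of 0.1 COL5A3 in CT1.0 did not pass (adjusted p = 0.0894).

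Among basement membrane chains, LAMB2 rose from 40.0 and 40.5 to 184 and 207 TPM in CT0.4 (log2 fold change 2.25, SE 0.10, adjusted p = 1.7e-10), by 0.76 in CT1.0 and by 0.34 in IWP2. LAMB1 rose in CT0.4 (1.07) and fell in CT1.0, from 80.5 and 98.4 to 26.2 and 29 TPM (-1.66, adjusted p = 0.000167). LAMC1 rose in each label (1.72, 0.61 and 0.44), most in IWP2, from 33.4 and 32.2 to 113 and 107 TPM. LAMA1 rose in IWP2 (0.67) and CT0.4 (0.69), LAMA5 in CT0.4 (0.87) and CT1.0 (0.97), and LAMA4, a vascular alpha chain, from 0.317 to 5.49 TPM in CT0.4 (2.30). COL4A6, COL4A5 and COL4A2 rose in IWP2 (0.79, 0.50 and 0.67) and CT0.4 (1.67, 1.04 and 1.08), and COL4A1 fell in CT1.0 (-0.36). COL18A1 fell in IWP2 (-0.68) and rose in CT0.4 (1.12). Under median-ratio scaling LAMB2 and COL4A5 in IWP2, LAMA5 in CT0.4 and CT1.0 and LAMC1 in CT0.4 and CT1.0 did not pass (adjusted p = 0.127, 0.0874, 0.116, 0.0872, 0.137 and 0.563).

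The FACIT and transmembrane chains split by label. COL9A2 and COL9A3 rose in CT0.4 by 3.50 and 3.38, to 91.0 ± 7.86 and 30.7 ± 7.03 TPM, COL9A3 also in IWP2 (2.21), and COL9A1 fell in IWP2 (-0.97) and CT1.0 (-0.66) and rose in CT0.4 (1.30). COL12A1, a FACIT of type I fibrils, rose in each label (2.73, 1.49 and 1.91). COL23A1 rose in CT0.4 (3.00), COL25A1, a transmembrane chain made by neurons, in IWP2 (1.16) and CT1.0 (2.26), and COL26A1 in IWP2 (0.65) and CT0.4 (2.70). Lower on day 8 were COL16A1 in IWP2 and CT1.0 (-1.31 and -1.76), COL14A1 in IWP2 and CT0.4 (-1.12 and -0.85), COL7A1 in IWP2 (-0.86), COL6A2 in CT1.0 (-1.05), COL13A1, a transmembrane chain of the neuromuscular junction, in CT0.4 and CT1.0 (-2.07 and -2.45), and COL17A1, a hemidesmosome chain, in CT0.4 (-0.74).

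With a WT line left out, 5 of 20, 14 of 29 and 2 of 18 of the calls from day 4 to day 8 passed in every fit. Those that did so were COL2A1, COL12A1, COL11A1, COL9A3 and LAMC1 in IWP2, COL3A1, COL5A2, COL9A2, COL9A3, COL23A1, COL26A1, LAMB2, COL11A1, COL6A1, COL4A6, COL2A1, COL18A1, COL4A2 and COL4A5 in CT0.4, and COL25A1 and LAMB2 in CT1.0. The named calls lost in IWP2, each with its highest adjusted p, were COL1A1 0.143, LAMB2 0.377, COL4A6 0.171, COL4A5 0.157, COL4A2 0.17, COL25A1 0.571, COL26A1 0.4, COL16A1 0.243 and COL6A1 0.0608 without WT line 1, and COL5A2 0.0618, LAMA1 0.112, COL18A1 0.15, COL9A1 0.274, COL14A1 0.14 and COL7A1 0.407 without WT line 2. In CT0.4 they were COL5A1 0.239, LAMB1 0.258, LAMA1 0.0846, LAMA4 0.0631, COL9A1 0.0767, COL12A1 0.12, COL14A1 0.158 and COL13A1 0.369 without WT line 1, and COL5A3 0.324, LAMC1 0.175, LAMA5 0.166 and COL17A1 0.336 without WT line 2, and in CT1.0 COL3A1 0.166, COL5A2 0.19, COL5A3 0.261, LAMB1 0.085, LAMC1 0.517, LAMA5 0.148, COL9A1 0.543, COL12A1 0.0741, COL6A1 0.0925, COL6A2 0.28 and COL13A1 0.353 without WT line 1, and COL2A1 0.0891, COL4A1 0.276 and COL16A1 0.132 without WT line 2.

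**Figure D3:**
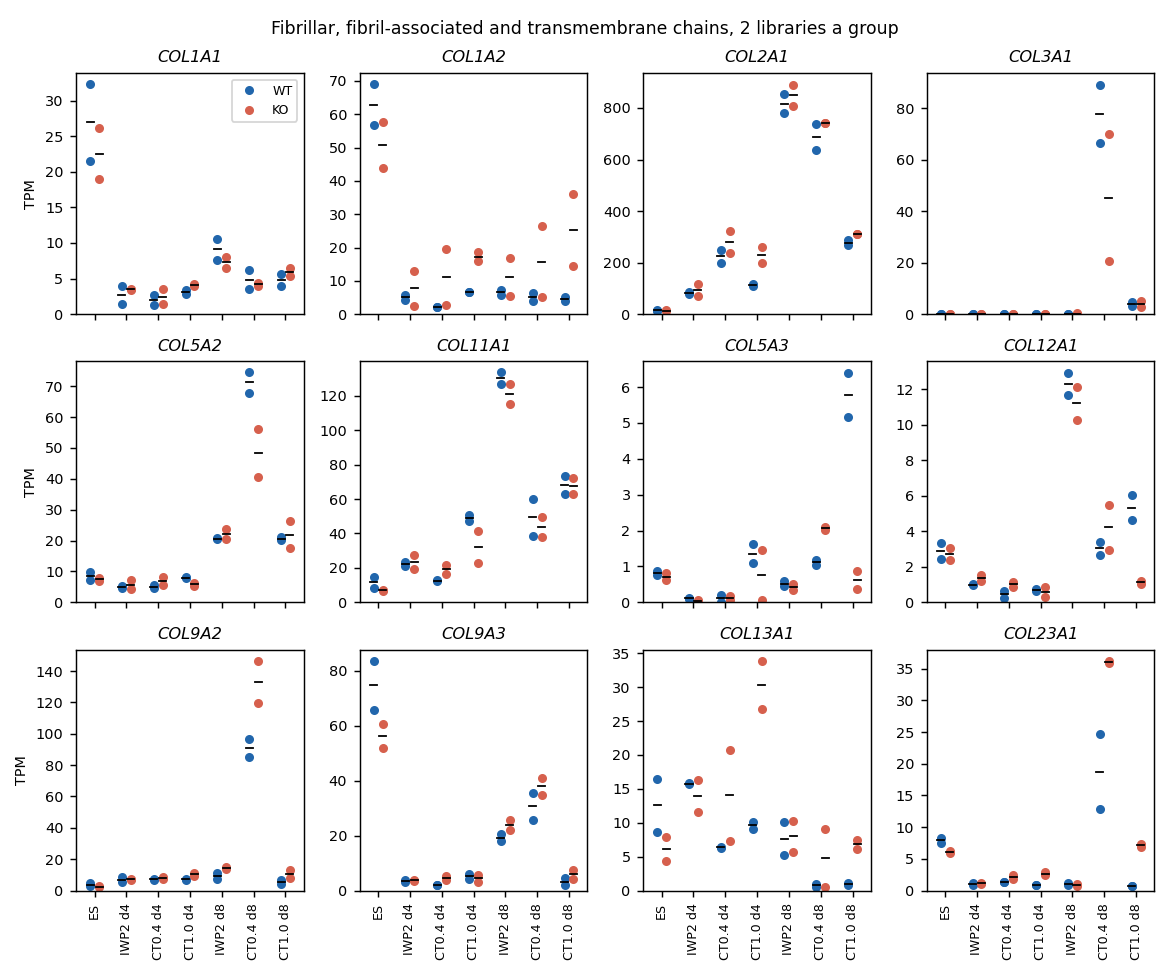
TPM on a linear y axis starting at 0, with its own scale in each panel, of selected fibrillar, FACIT and transmembrane chains in every library (points) with the mean of 2 libraries (short black lines) by group (x axis), WT and KO side by side. On day 8 WT COL3A1 lies at 66.6 to 89.1 TPM in CT0.4 and at 0.164 and 0.229 TPM in IWP2.

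On day 8 the 3 WT labels carried different collagen sets: CT0.4 was high in COL3A1, COL5A2, COL9A2, COL23A1 and LAMB2, IWP2 in COL11A1, COL12A1, COL4A1 and LAMC1, and CT1.0 in COL5A3. The 3 comparisons share libraries, so values are set side by side. CT0.4 against IWP2 had 12 members higher and 5 lower (24.5% and 10.2%, all genes 6.29% and 5.89%). CT1.0 had 2 higher and 16 lower against IWP2 (4.08% and 32.7%, all genes 2.97% and 7.82%), and 2 and 18 against CT0.4 (4.08% and 36.7%, all genes 4.2% and 10.1%). Median member log2 fold changes were 0.06, -0.42 and -0.16, beside 0, -0.08 and -0.05 for all genes. Both laminin beta chains and 5 of 9 FACIT chains were lower in CT1.0 than in CT0.4.

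Among laminins, LAMB2 had 184 and 207 TPM in CT0.4, 84.9 and 82.6 in IWP2 and 71.8 and 65.0 in CT1.0. CT0.4 did not overlap either of the others (1.21 against IWP2, adjusted p = 1.78e-07; CT1.0 against CT0.4 -1.50, adjusted p = 1.82e-08). CT1.0 was low in LAMB1, with 26.2 and 29 TPM against 90.4 and 82.4 in IWP2 and 102 and 90.5 in CT0.4 (-1.61 and -1.76). LAMC1 was ordered IWP2, CT0.4, CT1.0, at 110.4 ± 4.21, 62.2 ± 0.934 and 39.7 ± 0.703 TPM, and each step was called (-0.82 for CT0.4 against IWP2, -0.64 for CT1.0 against CT0.4 and -1.45 for CT1.0 against IWP2). LAMA1 was lower in CT1.0 (-0.73 and -0.85) and did not differ by the test between CT0.4 and IWP2 (0.11, adjusted p = 0.643). LAMA5 was called in none of the 3, with 161 and 104 TPM in IWP2, 80.3 and 143 in CT0.4 and 76.4 and 72.3 in CT1.0.

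Of the type IV chains, COL4A1 had 76.5 and 73.4 TPM in IWP2, 37.2 and 38.5 in CT0.4 and 33.8 and 33.6 in CT1.0 (-0.97, adjusted p = 7.91e-07, and -1.13, adjusted p = 2.23e-07). Its usual partner in the helix, COL4A2, was called only for CT1.0 against IWP2 (-0.74), and the ratio of COL4A2 to COL4A1 TPM was 1.66 in IWP2, 2.53 in CT0.4 and 2.21 in CT1.0, against 1.09 in ES. COL4A6 was ordered CT0.4, IWP2, CT1.0, with 104 and 105, 69.0 and 63.0 and 24.5 and 25.3 TPM (0.65 for CT0.4 against IWP2, -1.37 for CT1.0 against IWP2 and -2.02 for CT1.0 against CT0.4). COL4A5 was lower in CT1.0 than in CT0.4 (-0.84). COL18A1 had the same order as COL4A6, at 98.9 ± 3.74, 57.7 ± 6.43 and 34.9 ± 7.09 TPM (0.77, -0.72 and -1.49).

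Of the fibrillar chains, COL3A1 (chr2:188974320-189012746, plus strand) gave 6.03 for CT0.4 against IWP2 (adjusted p = 3.42e-09), 2.02 for CT1.0 against IWP2 and -4.01 for CT1.0 against CT0.4 (adjusted p = 5.97e-07). Its neighbour COL5A2 (chr2:189031896-189225312, minus strand) had 74.5 and 67.9 TPM in CT0.4, 20.5 and 20.9 in IWP2 and 21.2 and 20.0 in CT1.0 (1.74 and -1.74). COL2A1 was lower in CT1.0 than in IWP2 (-1.55, adjusted p = 2.88e-05) and CT0.4 (-1.30), and COL11A1 was highest in IWP2, at 130.1 ± 4.87 TPM (-1.41 for CT0.4 and -0.93 for CT1.0 against it). COL5A3, a chain of low level beside COL2A1, was the only fibrillar chain called higher in CT1.0 than in both other labels. It had 6.40 and 5.18 TPM there, against 0.597 and 0.449 in IWP2 and 1.18 and 1.05 in CT0.4 (2.15 and 1.68). COL1A1, COL1A2 and COL5A1 were called in none of the 3, with day 8 WT means of 4.75 to 9.11, 4.63 to 6.51 and 19.2 to 24.1 TPM.

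COL9A2 had 96.6 and 85.5 TPM in CT0.4, 7.49 and 11.4 in IWP2 and 4.29 and 6.62 in CT1.0 (3.16 and -3.85). The other chains of type IX collagen followed in CT1.0, where COL9A1 was lower than in CT0.4 (-2.50) and IWP2 (-1.35, beside 1.15 for CT0.4 against IWP2) and COL9A3 lower by 2.96 and 2.33. COL23A1 had 24.8 and 12.8 TPM in CT0.4 and at most 1.23 in any library of the other labels (3.23 and -3.47). COL26A1 was ordered CT0.4, IWP2, CT1.0, at 189 ± 6.28, 101 ± 11 and 46.2 ± 3.31 TPM. COL12A1 and COL13A1 were highest in IWP2, at 12.3 ± 0.872 and 7.66 ± 3.45 TPM (-1.73 and -2.24 for CT0.4, -1.08 and -2.09 for CT1.0 against it), and COL25A1 was higher in CT1.0 than in CT0.4 (1.66, 8.44 ± 1.17 against 2.10 ± 1.25 TPM).

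With a WT line left out, 5 of 17, 3 of 18 and 12 of 20 of these calls passed in every fit. The named calls lost, each with its highest adjusted p, were for CT0.4 against IWP2 COL5A2 0.0606, COL9A1 0.166, LAMC1 0.148, COL11A1 0.195 and COL13A1 0.567 without WT line 1, and COL26A1 0.199, COL18A1 0.0734, COL4A6 0.283 and COL12A1 0.0503 without WT line 2. For CT1.0 against IWP2 they were COL5A3 0.0654, COL3A1 0.238, COL18A1 0.298, COL4A2 0.174, COL26A1 0.126, COL9A1 0.136, COL2A1 0.0637, LAMB1 0.126, COL13A1 0.617 and COL9A3 0.0661 without WT line 1, and LAMA1 0.101, COL11A1 0.401 and COL12A1 0.264 without WT line 2, and for CT1.0 against CT0.4 COL5A3 0.121, COL25A1 0.175, LAMC1 0.22, COL2A1 0.105 and LAMB1 0.0752 without WT line 1. For CT1.0 against IWP2 median-ratio scaling also lost COL11A1 and COL13A1 (adjusted p = 0.0879 and 0.0564), and with the line as a block COL13A1 did not pass (adjusted p = 0.0555). With a pseudocount of 0.1 COL12A1 for CT1.0 against IWP2 and COL5A3 for CT1.0 against CT0.4 did not pass (adjusted p = 0.0946 and 0.0609).

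Markers of other cell types moved with the labels. The neural crest list summed to 5.13 and 3.92 TPM in IWP2, 22.4 and 14.8 in CT0.4 and 20.8 and 16.3 in CT1.0, with FOXD3 and TFAP2B at 0 in IWP2. Most of the sums in IWP2 and CT0.4 was SNAI2, at 4.04 and 3.65 and at 17.4 and 11.6 TPM, and it had 8.60 and 9.77 in CT1.0. SOX10 stayed at or below 0.593 TPM and FOXD3 at or below 0.444 in these libraries. The sums thus do not mark neural crest on their own. Of the mesenchyme genes 7 of 7 reached 1 TPM in at least 1 CT0.4 library, against 4 in IWP2 and in CT1.0. DCN (1.33 and 0.476 TPM) and PRRX1 (0.0286 and 1.53) did so in only 1 CT0.4 library, and LUM (1.64 and 0.900) in only 1 CT1.0 library. The mesenchyme list summed to 72.8 and 74.8 TPM in CT0.4, 112 and 108 in IWP2 and 65.2 and 59.1 in CT1.0. Most of these sums in IWP2 and CT1.0 was THY1, and without it they were 47.8 and 43.3 in CT0.4, 26.4 and 26.6 in IWP2 and 13.4 and 13.6 in CT1.0. For CT0.4 against IWP2, PDGFRA (1.48) and TWIST1 (0.77) were called higher and THY1 (-1.53) lower. The neuron list summed to 741 and 607 TPM in CT1.0 and 313 and 313 in IWP2, and the surface ectoderm list to 43.9 and 55.8 and 289 and 279. Endoderm markers summed to at most 2.79 TPM in these groups, with SOX17 at 0 in all 3. The part of other cell types in the collagen differences was not tested.

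On day 4 the WT CT labels were lower than IWP2 in several basement membrane chains, LAMA5, LAMB2, COL4A1 and COL18A1, while LAMA1, LAMB1, LAMC1, COL4A5 and COL4A6 were not called. CT0.4 against IWP2 had 1 member higher and 11 lower (2.04% and 22.4%, all genes 2.45% and 10.6%), and CT1.0 against IWP2 3 and 7 (6.12% and 14.3%, all genes 2.82% and 17.2%). In CT1.0 the share of members called lower was thus below that of all genes. Median member log2 fold changes were -0.23 and -0.12, beside -0.14 and -0.22 for all genes. These CT libraries are the ones that stood apart, and with median-ratio scaling the calls were 3 higher and 8 lower for CT0.4 and 8 higher and 6 lower for CT1.0. LAMA5, with 138 and 149 TPM in IWP2, 51.0 and 66.4 in CT0.4 and 36.6 and 38.5 in CT1.0, was the lowest member in both (log2 fold change -1.29, SE 0.25, adjusted p = 0.0021; log2 fold change -1.91, SE 0.25, adjusted p = 4.93e-05). COL18A1 (-1.03 and -0.99), LAMB2 (-0.70 and -0.71) and COL4A1 (-0.68 and -0.66) were lower in both, as were COL9A1 (-1.11 and -1.65), COL26A1 (-1.15 and -0.88) and COL7A1 (-1.11 and -0.89). COL4A2 (-0.80), COL5A1 (-0.77) and COL6A2 (-0.92) were lower in CT0.4. COL2A1 was the one member higher in CT0.4 (1.40, adjusted p = 0.000114), and COL11A1 (1.11), COL5A3 (1.08) and COL22A1 (0.61) were higher in CT1.0. Under median-ratio scaling COL5A1 and COL6A2 in CT0.4 and COL7A1 in CT1.0 did not pass (adjusted p = 0.1, 0.118 and 0.175). With a WT line left out COL18A1 passed in every fit of both, and COL4A1, COL9A1 and LAMA5 in those of CT1.0. The other named calls were lost, each with its highest adjusted p, in CT0.4 for LAMA5 0.078, COL4A1 0.0931, LAMB2 0.0619, COL4A2 0.19, COL5A1 0.454, COL7A1 0.101, COL9A1 0.163 and COL26A1 0.131 without WT line 1, and COL2A1 0.0871 and COL6A2 0.474 without WT line 2. In CT1.0 they were COL22A1 0.629, COL26A1 0.198 and COL7A1 0.186 without WT line 1, and COL11A1 0.176, COL5A3 0.333 and LAMB2 0.0622 without WT line 2.

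**Figure D4:**
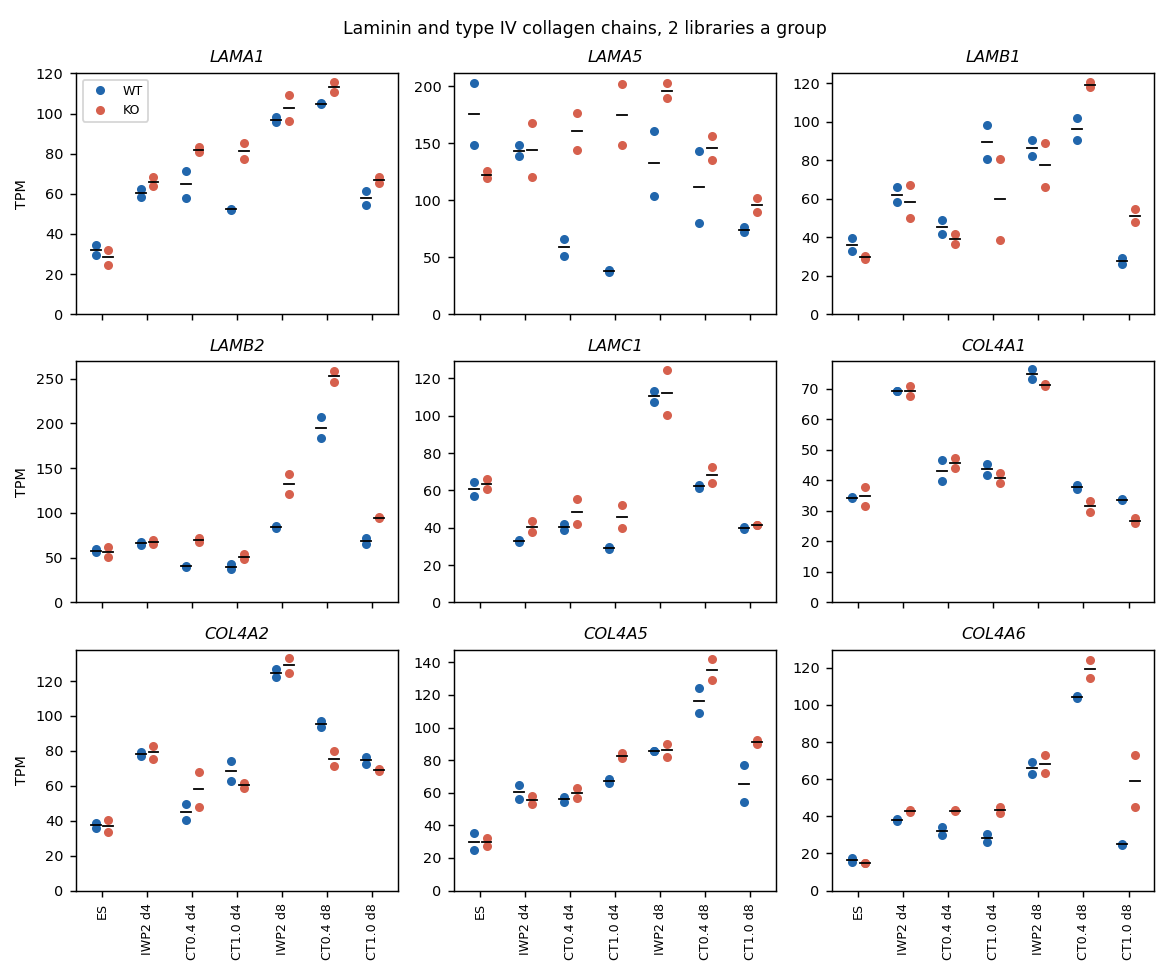
TPM on a linear y axis starting at 0, with its own scale in each panel, of laminin and type IV collagen chains in every library (points) with the mean of 2 libraries (short black lines) by group (x axis), WT and KO side by side. On day 4 the WT CT1.0 libraries of LAMA5 lie at 36.6 and 38.5 TPM and the KO libraries at 202 and 148 TPM.

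SOX1-/- cells were next compared with WT in each group. In ES cells and in IWP2 on day 4, 0 members were called at either side with limma. The shares of all genes called were 0.0502% higher and 0.168% lower in ES and 0.0287% and 0.0143% in IWP2 on day 4. At an unadjusted p under 0.05 there was 1 member in each, and each of the 12 other settings of the fit also called 0 in both. The median member log2 fold change was -0.07 and 0.01, beside 0 for all genes in both. In ES cells LAMA5 had 203 and 149 TPM in WT and 119.5 and 126 in KO (-0.50, adjusted p = 0.495), and COL1A2 69.0 and 56.8 and 44.0 and 57.6. The libraries of WT and KO overlapped for COL1A2 and not for LAMA5.

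In CT0.4 on day 4 LAMA5, LAMB2 and COL6A1 were higher in KO: 3 members called higher and 0 lower, 6.12% of members beside 3.67% of all genes higher and 0.566% lower. LAMA5 had 177 and 144 TPM in KO and 51.0 and 66.4 in WT (log2 fold change 1.44, SE 0.25, adjusted p = 0.00388), LAMB2 67.0 and 71.8 and 40.0 and 40.5 (log2 fold change 0.77, SE 0.10, adjusted p = 0.000491), and COL6A1 29.2 and 24.7 and 16.3 and 16.6 (log2 fold change 0.67, SE 0.12, adjusted p = 0.00584). KO lay above WT in every library of the 3. With 1 line left out each was lost in some fit, the highest adjusted p being LAMA5 0.147 without KO line 26, and LAMB2 0.0678 and COL6A1 0.207 without WT line 1. The median member log2 fold change of 0.34 stands beside 0.13 for all genes.

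In CT1.0 on day 4 9 members were called higher in KO and 0 lower (18.4% of members higher, all genes 12.4% higher and 2.49% lower). LAMA5 had 202 and 148 TPM in KO and 36.6 and 38.5 in WT, 4.66-fold by TPM means (log2 fold change 2.17, SE 0.25, adjusted p = 4.13e-05), and passed with any 1 line left out. LAMA5 lies at chr20:62307955-62367312 on the minus strand, where exons of ADRM1 and LAMA5-AS1 overlap it on the other strand, and the sources used here do not say whether the counting used strand. Exons of 13 members are overlapped in this way, among them LAMB1, COL4A2, COL9A3, COL18A1 and COL5A3. COL2A1 had 260.0 and 198 TPM in KO and 117 and 110.2 in WT (log2 fold change 0.99, SE 0.19, adjusted p = 0.00238), and COL23A1 2.89 and 2.40 and 0.847 and 0.865 (log2 fold change 0.97, SE 0.22, adjusted p = 0.00787). LAMA1 had 85.3 and 77.2 and 52.2 and 52.1 TPM (log2 fold change 0.63, SE 0.12, adjusted p = 0.0018). LAMC1 (0.63), COL22A1 (0.71), COL4A6 (0.61), COL6A1 (0.48) and LAMB2 (0.35) were also called.

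The scaling changed these calls. The median of all genes as deposited was 0.19, and that of members 0.30. With median-ratio scaling 4 members were higher and 5 lower: LAMA5, COL2A1, COL23A1 and LAMA1 remained called, while COL11A1, COL26A1, LAMB1, COL4A1 and COL4A2 were called lower in KO. LAMB2, COL6A1, COL4A6, COL22A1 and LAMC1 did not pass in that fit (adjusted p = 0.669, 0.273, 0.143, 0.139 and 0.0943). With 1 line left out the named calls other than LAMA5 were lost, each with its highest adjusted p: COL23A1 0.155 without KO line 26, and LAMA1 0.0545, LAMC1 0.164, COL4A6 0.263 and COL6A1 0.188 without WT line 1, and COL2A1 0.096, COL22A1 0.332 and LAMB2 0.318 without WT line 2. The ratio of LAMA1 to LAMA5 TPM on day 4 was 0.517 in KO CT0.4 and 0.471 in KO CT1.0, beside 0.474 in KO IWP2, where WT had 1.11, 1.39 and 0.422.

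Markers on day 4 also differed between genotypes in CT1.0. Of 6 neural progenitor genes SOX3 (-1.57) and NES (-0.99) were called lower in KO, and that list summed to 498 and 703 TPM in KO and 856 and 962 in WT. Of 5 surface ectoderm genes EPCAM (1.0) and KRT18 (0.75) were higher, with sums of 136 and 117 and 98.5 and 111. Both genes were also high in WT ES cells, EPCAM at 151 and 159 TPM and KRT18 at 158 and 187. Of 5 endothelium genes KDR (0.84) was higher and TEK (-1.91) lower, with sums of 8.26 and 17.1 and 34.6 and 33.3. In the pluripotency, mesenchyme, endoderm, neural crest and neuron lists 0 genes were called by limma in CT1.0, and in CT0.4 0 genes of any of the 8 lists. The part of these cell types in the collagen and laminin differences was not tested.

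On day 8 few members were called between genotypes in IWP2 and CT0.4. In IWP2 1 member was called higher and 0 lower (all genes 0.043% and 0.0179%). It was LAMB2, with 144 and 121 TPM in KO and 84.9 and 82.6 in WT (log2 fold change 0.65, SE 0.10, adjusted p = 0.0177), a call lost in 3 of 4 fits with a line left out, up to 0.298 without WT line 2. In CT0.4 0 members were called by limma (all genes 0.158% higher and 0.258% lower), 9 had an unadjusted p under 0.05, and 1 was called with robust variances and no intensity trend. COL3A1 had 20.5 and 69.9 TPM in KO and 89.1 and 66.6 in WT CT0.4 (-1.0, adjusted p = 0.352), with line 48 inside the WT range and line 26 below it. COL13A1 had 0.472 and 9.10 and 0.577 and 0.958 TPM, high in KO line 48 alone.

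In CT1.0 on day 8, KO cells held more type IV alpha5 and alpha6 RNA, more of both laminin beta chains, more of the transmembrane chains COL23A1 and COL13A1 and less COL5A3, COL12A1, COL5A1 and COL4A1 than WT. Called members were 9 higher and 4 lower (18.4% and 8.16%, all genes 4.34% and 9.96%). By class, 2 of 5 type IV chains were higher and 1 lower, 1 of 9 chains of other networks and filaments higher, 2 of 10 fibrillar chains lower, 2 of 9 FACIT chains higher and 1 lower, 2 of 4 transmembrane chains higher and 2 of 2 laminin beta chains higher. The median member log2 fold change was 0.17 and that of all genes -0.02. The laminin chains LAMA1, LAMA5 and LAMC1 were not called, with 0.20 for LAMA1, 0.36 for LAMA5 and 0.06 for LAMC1 (adjusted p = 0.294, 0.398 and 0.865).

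LAMB1 had 55.0 and 47.7 TPM in KO and 26.2 and 29 in WT (log2 fold change 0.87, SE 0.24, adjusted p = 0.0208) and LAMB2 95.8 and 93.7 and 71.8 and 65.0 (log2 fold change 0.47, SE 0.10, adjusted p = 0.00538). COL4A6 had 72.8 and 44.8 TPM in KO and 24.5 and 25.3 in WT (log2 fold change 1.17, SE 0.15, adjusted p = 0.00014), and COL4A5, across the stretch printed above, 92.2 and 90.0 and 77.0 and 54.2 (log2 fold change 0.49, SE 0.15, adjusted p = 0.0399). COL4A6 libraries differed between the KO lines by more than between the WT lines. COL4A1 went the other way, with 25.9 and 27.7 TPM in KO and 33.8 and 33.6 in WT (log2 fold change -0.32, SE 0.09, adjusted p = 0.0258), and COL4A2, whose start is 127 bases from that of COL4A1, was not called (-0.10, adjusted p = 0.72). The ratio of COL4A5 to COL4A1 TPM was 3.41 in KO and 1.95 in WT.

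COL23A1 (chr5:178237618-178590555, minus strand) had 6.88 and 7.36 TPM in KO and 0.734 and 0.677 in WT, 10.1-fold by TPM means (log2 fold change 2.25, SE 0.22, adjusted p = 2.14e-05). It was the member with the highest fold change in this comparison, and it passed with any 1 line left out. WT CT0.4 on day 8 held 24.8 and 12.8 TPM and KO CT0.4 36.0 and 36.2, so that the KO CT1.0 libraries lay between those of WT CT1.0 and of both CT0.4 groups. COL13A1 had 7.52 and 6.10 TPM in KO and 0.853 and 1.05 in WT (log2 fold change 2.00, SE 0.62, adjusted p = 0.0407), and COL6A2 26.5 and 17.6 and 7.06 and 7.57 (log2 fold change 1.44, SE 0.27, adjusted p = 0.00188). COL6A1, the partner chain of COL6A2, was not called (-0.21, adjusted p = 0.308). COL9A1 had 38.3 and 24.7 TPM in KO and 13.2 and 15.7 in WT (1.04, adjusted p = 0.00413), and COL9A2 gave 0.82 (adjusted p = 0.0425).

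Lower in KO was COL5A3 (chr19:9959561-10010471, minus strand), a minor fibrillar chain, with 0.372 and 0.874 TPM against 6.40 and 5.18 in WT (log2 fold change -2.08, SE 0.29, adjusted p = 0.000254). COL12A1 (chr6:75084326-75206051, minus strand) had 1.04 and 1.22 TPM in KO and 6.03 and 4.63 in WT (log2 fold change -1.57, SE 0.25, adjusted p = 0.000738). Both KO libraries lay below both WT libraries in either gene. COL5A1 had 14.4 and 14.1 and 21.8 and 26.4 TPM (log2 fold change -0.71, SE 0.20, adjusted p = 0.0253). COL2A1 (0.17), COL11A1 (-0.01), COL3A1 (-0.01), COL5A2 (0.05), COL1A1 (0.28) and COL18A1 (0.29) were not called, with adjusted p = 0.669, 1, 1, 0.973, 0.7 and 0.177.

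COL1A2 stood apart from COL1A1 in differentiated KO cells, mostly in line 26. In KO CT1.0 on day 8 COL1A2 had 36.0 and 14.3 TPM against 4.09 and 5.16 in WT (log2 fold change 2.09, SE 0.76, adjusted p = 0.0797). This was not called although the libraries did not overlap. The ratio of COL1A2 to COL1A1 TPM was 6.76 and 2.19 in KO lines 26 and 48, against 0.730 and 1.33 in WT. KO line 26 was above KO line 48 in each differentiated group: 13.0 and 2.46 TPM in IWP2, 19.6 and 2.90 in CT0.4 and 18.7 and 15.8 in CT1.0 on day 4, and 16.8 and 5.34 in IWP2 and 26.4 and 5.22 in CT0.4 on day 8. WT libraries on days 4 and 8 spanned 2.03 to 7.12 TPM. Without KO line 26 the CT1.0 day 8 difference was 1.45, and without KO line 48 it was 2.72. With the line as a block the adjusted p was 0.0108. Each line belongs to 1 genotype, so the block takes out the spread between lines, which is part of the error of KO against WT. That value therefore does not make COL1A2 a call.

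Only COL23A1 and COL4A6 of the 13 calls in CT1.0 on day 8 passed with each of the 4 lines left out in turn. The others were lost, each with its highest adjusted p: COL9A2 0.537 and COL4A5 0.329 without KO line 26, and COL13A1 0.354, COL6A2 0.107, COL9A1 0.159, LAMB1 0.294, COL5A3 0.0657, COL12A1 0.0837 and COL4A1 0.211 without WT line 1, and LAMB2 0.136 and COL5A1 0.263 without WT line 2. A fit of the 4 libraries compared alone called 0. With median-ratio scaling 10 members were higher and 2 lower, COL18A1 being added (0.40, adjusted p = 0.0479) and COL5A1 and COL4A1 not passing (adjusted p = 0.0623 and 0.104). Without the filter on low values COL9A2, COL13A1 and COL4A5 did not pass (adjusted p = 0.064, 0.0671 and 0.0613). With no trend and robust variance the same 3 and COL4A1 did not (adjusted p = 0.0533, 0.0532, 0.068 and 0.0655). With the line as a block COL13A1 did not pass (adjusted p = 0.0557).

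**Figure D5:**
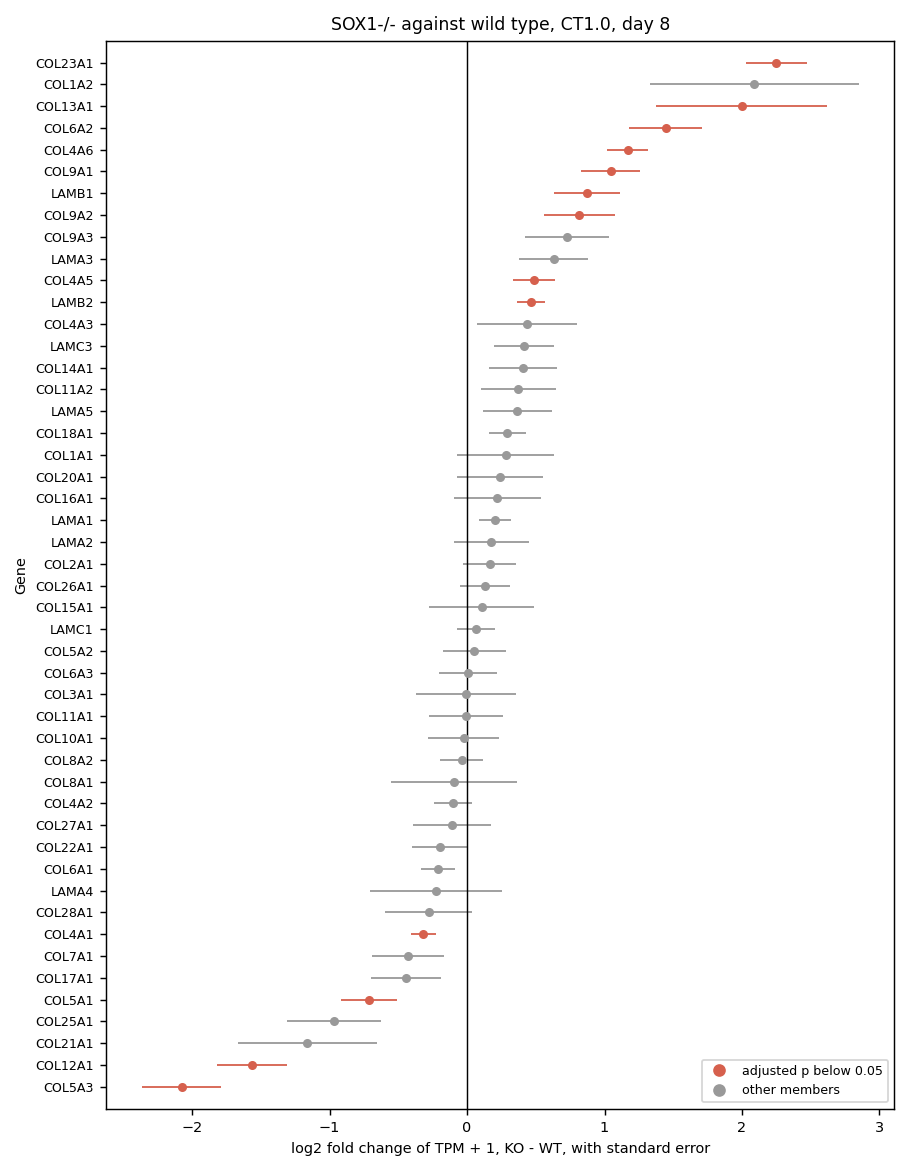
Log2 fold change in CT1.0 on day 8, KO against WT (x axis, error bars 1 SE) for 48 of the 49 members (y axis, ordered by fold change), with members at an adjusted p below 0.05 in red and the others in grey. COL23A1 is highest at 2.25 and COL5A3 lowest at -2.08.

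Marker lists moved with genotype in these libraries. On day 8 in CT1.0 the neural progenitor list summed to 420.4 and 705 TPM in KO and 1394 and 1309 in WT, and the neuron list to 132 and 306 and 741 and 607. The neural crest list summed to 45.3 and 46.2 and 20.8 and 16.3 TPM, with 5 of 5 genes at or above 1 TPM in a KO library and 3 of 5 in WT, and the surface ectoderm list to 102 and 75.8 and 43.9 and 55.8. The mesenchyme list had 5 of 7 genes at or above 1 TPM in at least 1 KO library and 4 of 7 in WT. It summed to 53.1 and 54.3 and 65.2 and 59.1 (13.6 and 13.4 and 13.4 and 13.6 without THY1). The endothelium list summed to 6.25 and 8.50 and 17.2 and 15.7, and the endoderm list to 0.128 and 1.18 and 2.79 and 2.48, with SOX17 and GATA4 at 0 in both genotypes. The pluripotency list summed to 533 and 518 in KO and 536 and 483 in WT. The part of these cell types in the collagen and laminin differences was not tested.

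Whether the KO effect itself differed between labels on day 8 was tested directly. Between CT0.4 and IWP2 0 members passed by limma (all genes 0.0466% higher and 0.1% lower), with 2 at an unadjusted p under 0.05. Between CT1.0 and IWP2 2 were higher and 3 lower (all genes 0.91% and 2.31%), and between CT1.0 and CT0.4 3 and 2 (all genes 1.55% and 3.05%). Both use the CT1.0 libraries. Against IWP2 the KO effect in CT1.0 was higher for COL23A1 by 2.32 and COL4A6 by 1.13, and lower for COL5A3 (-1.98), COL12A1 (-1.44) and COL10A1 (-1.43). Against CT0.4 the values were 1.27 for COL23A1, 1.27 for COL14A1, 0.97 for COL4A6, -1.90 for COL12A1 and -2.61 for COL5A3. COL10A1, a chain of hypertrophic cartilage, had 2.05 and 1.48 TPM in KO IWP2 and 0.0289 and 0.0579 in WT IWP2 on day 8, with 1.40 and adjusted p = 0.0696 there. It reached 1 TPM in only 3 libraries, those of KO IWP2 on day 8 among them. Its place among the members thus rests on the group where it was high, and its call is no separate support. Median-ratio scaling left 2 higher and 1 lower against IWP2, where COL10A1 and COL12A1 did not pass (adjusted p = 0.0699 and 0.0509), and 2 and 2 against CT0.4, where COL14A1 did not pass (adjusted p = 0.052).

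Genes that work with collagens and laminins were followed in 4 lists: 13 tested partners of the basement membrane, 27 genes of collagen assembly and crosslinking, 11 receptors and 9 genes of degradation. In KO ES cells 1 assembly gene was lower, P4HA1, a catalytic chain of the prolyl hydroxylase that stabilises the helix (log2 fold change -0.97, SE 0.16, adjusted p = 0.00947), and in IWP2 on both days 0 genes of the 4 lists were called. The lists were chosen with earlier results of these data known, and their counts are descriptions. In CT0.4 on day 4 3 partners, 4 assembly genes and 1 receptor were higher in KO and 0 were lower (all genes 3.67% and 0.566%). The partners were HSPG2, the proteoglycan perlecan (0.78), AGRN, agrin (0.69), and PXDN, which crosslinks type IV collagen (0.53). Leading assembly genes were P4HA2 (2.57, 12.1 ± 3.42 against 1.17 ± 0.266 TPM), P4HA1 (1.11) and PLOD1, a lysyl hydroxylase (0.58), and the receptor was the laminin-binding integrin chain ITGA7 (0.59). Median log2 fold changes were 0.42 for partners, 0.38 for assembly, 0.05 for receptors and 0.16 for degradation, beside 0.13 for all genes. In CT1.0 on day 4 the same lists gave 3 partners higher and 1 lower, 6 assembly genes higher and 2 lower, 2 receptors higher and 1 degradation gene lower (all genes 12.4% higher and 2.49% lower). HSPG2 (0.98) and AGRN (0.62) were higher and NID2, a nidogen that ties laminin to type IV collagen, lower (-1.93). P4HA2 (2.10), PLOD2 (2.01) and P4HA1 (1.41) led the assembly genes. BCAM, a receptor of laminins with the LAMA5 chain, had 46.4 ± 20.7 TPM in KO and 10.5 ± 1.36 in WT (1.97), ITGA7 gave 0.94, and the protease inhibitor TIMP2 gave -0.38. The list medians were 0.06, 0.40, 0.14 and 0.05 in the same order, beside 0.19 for all genes. With median-ratio scaling AGRN, PXDN, PLOD1 and ITGA7 in CT0.4 and AGRN in CT1.0 did not pass (adjusted p = 0.0954, 0.211, 0.0943, 0.13 and 0.164).

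On day 8 the KO calls in CT0.4 were 1 partner lower, NID1 (-0.71, adjusted p = 0.0489, and 0.0583 with the line as a block). In CT1.0 2 partners were lower, 4 assembly genes higher and 3 lower, 4 receptors lower, and 1 degradation gene higher and 2 lower (all genes 4.34% higher and 9.96% lower). Median log2 fold changes were -0.08 for partners, 0.07 for assembly, -0.38 for receptors and -0.01 for degradation, beside -0.02 for all genes. NID2 had the largest change, 18.6 ± 5.56 TPM in KO against 155 ± 21.8 in WT (log2 fold change -3.02, SE 0.33, adjusted p = 3.85e-05), and PXDN gave -0.62. P4HA1 (1.76, 90.1 ± 17.9 against 25.6 ± 2.73 TPM) passed with any line left out, and P4HA2 (1.42) and the procollagen protease ADAMTS2 (1.25) were also higher. The receptors DAG1, which binds laminin as dystroglycan (-0.79), ITGA2 (-0.69) and DDR1, a collagen-binding kinase (-0.59), were lower. The collagenase MMP14 was higher, at 10.7 ± 7.03 TPM against 1.36 ± 0.399 (log2 fold change 2.18, SE 0.50, adjusted p = 0.00737), but not in 3 of the 4 fits with a line left out, and its inhibitors TIMP3 (-1.21) and TIMP2 (-0.65) were lower.

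Among WT labels on day 8 the nidogens separated CT1.0 from the others. NID2 had 155 ± 21.8 TPM in CT1.0 and 7.12 ± 0.510 in IWP2 (log2 fold change 4.26, SE 0.33, adjusted p = 1.43e-07), and NID1 14.9 ± 0.627 and 135 ± 3.78 (log2 fold change -3.09, SE 0.15, adjusted p = 4.82e-10). FN1, fibronectin, was lower in CT1.0 than in IWP2 (-1.41). Against CT0.4, CT1.0 had NID2 higher (4.10) and FREM1 (-1.86) and EGFLAM (-1.42) lower, and CT0.4 against IWP2 had FREM1 (2.51) and EGFLAM (1.55) higher and NID1 lower (-1.85). Partners called were 4 higher and 1 lower for CT0.4 against IWP2, 2 and 5 for CT1.0 against IWP2, and 1 and 7 for CT1.0 against CT0.4 (all genes 6.29% and 5.89%, 2.97% and 7.82%, and 4.2% and 10.1%), with medians of 0.15, -0.30 and -0.56. Assembly genes were 6 and 2, 3 and 10, and 0 and 12 in the same order, with medians of 0.17, -0.37 and -0.48. They were led by the prolyl hydroxylase P3H2 (2.50, 1.37 and -1.13), P4HA2 (1.91 for CT0.4 against IWP2 and -1.7 for CT1.0 against CT0.4), PCOLCE2, an enhancer of procollagen processing (-1.65 and -1.23 against IWP2), and the lysyl oxidases LOXL1 (-1.17 for CT1.0 against IWP2) and LOXL2 (-0.91 for CT1.0 against CT0.4).

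Receptors called were 1 higher and 1 lower for CT0.4 against IWP2, 2 and 2 for CT1.0 against IWP2, and 1 and 4 for CT1.0 against CT0.4. Beside these and the degradation genes, the shares of all genes were 6.29% and 5.89%, 2.97% and 7.82%, and 4.2% and 10.1%. The laminin-binding integrin chain ITGA6 was higher in both CT labels than in IWP2 (1.78 and 1.27) and ITGA3 lower (-1.22 and -1.67), with ITGB1, their common beta chain, lower in CT1.0 (-0.64). Against CT0.4, CT1.0 had DDR1 higher (0.75) and DDR2 (-0.84) and ITGA7 (-0.66) lower. Degradation genes called were MMP16 for CT0.4 against IWP2 (-0.94), TIMP3 (1.35) and TIMP2 (-0.47) for CT1.0 against IWP2, and TIMP3 (1.48), ADAMTS1 (1.07) and TIMP2 (-0.51) for CT1.0 against CT0.4. Medians in the same order were 0.19, 0.06 and -0.46 for receptors and -0.13, -0.11 and 0.04 for degradation. With median-ratio scaling ITGA3 for CT0.4 against IWP2, TIMP2 for CT1.0 against IWP2, and P3H2 and DDR2 for CT1.0 against CT0.4 did not pass (adjusted p = 0.0597, 0.0733, 0.0619 and 0.0764). From day 4 to day 8 in WT CT0.4, 10 of 13 partners and 17 of 27 assembly genes were called higher, 0 partners and 1 assembly gene lower (all genes 19.7% and 5.08%), in a comparison with day 4 libraries that stood apart.

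The listed genes named for KO whose call was lost with some line left out, each with its highest adjusted p, were in ES P4HA1 0.402 without WT line 1 and in CT0.4 on day 4 AGRN 0.3 without KO line 26, and HSPG2 0.156, PXDN 0.533, PLOD1 0.302 and ITGA7 0.354 without WT line 1. In CT1.0 on day 4 they were NID2 0.056, AGRN 0.215 and ITGA7 0.0573 without KO line 26, and PLOD2 0.0713 without WT line 1, and TIMP2 0.291 without WT line 2. On day 8 they were in CT0.4 NID1 0.657 without WT line 2, and in CT1.0 PXDN 0.176 and ADAMTS2 0.302 without KO line 26, and P4HA2 0.164, DAG1 0.0591, ITGA2 0.247, DDR1 0.142, MMP14 0.21, TIMP3 0.129 and TIMP2 0.0847 without WT line 1. Between WT labels on day 8 they were for CT0.4 against IWP2 P4HA2 0.132, PCOLCE2 0.137, ITGA6 0.183, ITGA3 0.417 and MMP16 0.243 without WT line 1, and P3H2 0.0763 without WT line 2. For CT1.0 against IWP2 they were PCOLCE2 0.279, LOXL1 0.258, ITGA3 0.141, ITGA6 0.341 and TIMP2 0.261 without WT line 1, and P3H2 0.438 and TIMP3 0.21 without WT line 2, and for CT1.0 against CT0.4 P4HA2 0.153, DDR2 0.409, DDR1 0.11, TIMP3 0.188, ADAMTS1 0.524 and TIMP2 0.153 without WT line 1, and EGFLAM 0.0517, P3H2 0.387, LOXL2 0.0812 and ITGA7 0.252 without WT line 2.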

How the data were processed

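Poly(A) RNA of 28 H9 libraries in 14 groups of 2 was measured by RNA-seq. The authors deposited 1 table of TPM per gene (58219 rows), and CASAVA 1.7, Salmon 0.8.2 and hg38 are named in the submitters' processing notes. TPM scales each library to the same sum, so it keeps no depth and a rise in some genes lowers others. Depth per library is unknown, and no counting interval is given. The labels name HiSeq2000 and X-ten without tying either to a sample, so no batch could be fitted.

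From these values log2(TPM + 1) was computed, and 14 group means were fitted over all 28 libraries with limma 3.58.1 in R 4.3.3 (14 residual degrees of freedom, intensity trend). Genes with a TPM of at least 1 in at least 2 libraries entered, 27912 in all, and p-values were adjusted by Benjamini-Hochberg within each of 21 comparisons. Other settings were median-ratio scaling, a pseudocount of 0.1, no filter, a fit of only the compared libraries, a block for the line, no trend with robust variance, a minimum absolute log2 fold change of 1, and each line left out in turn.

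The members and gene lists were chosen with earlier results of these data known. Named are, per comparison, up to 6 highest and 6 lowest called members whose libraries do not overlap, the main basement membrane and fibrillar chains throughout, and up to 3 called genes per list. Some further members were named after their values were seen. The values of 1 member are not reported here or drawn, and it is counted in all totals. The 275 gene names that occur in more than 1 row were left out. Positions are from GENCODE 29 (GRCh38), whose gene IDs matched 56 of 56 rows without version and 39 with it. Promoter sequences are from RefSeq (GRCh38.p14).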

Additional observations from a re-analysis of the deposited data

Results flagged for a closer look

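The difference between WT and KO on day 8 was itself different between labels for 6 members, by the test of that difference in limma. Both comparisons use the same CT1.0 libraries, so they are not separate evidence. Each value is the log2 fold change of KO against WT in CT1.0 minus that in the other label.

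Against IWP2, COL23A1 differed by 2.32 (adjusted p = 0.00217), COL4A6 by 1.13 (adjusted p = 0.0102), COL10A1 by -1.43 (adjusted p = 0.043), COL12A1 by -1.44 (adjusted p = 0.0372) and COL5A3 by -1.98 (adjusted p = 0.017). With a line left out COL23A1 passed in every fit, with a highest adjusted p of 0.0483 without KO line 26. The others were lost without WT line 1, at 0.276 for COL4A6, 0.347 for COL10A1, 0.336 for COL12A1 and 0.283 for COL5A3. The value of COL10A1 comes from a difference in IWP2, where KO had 2.05 and 1.48 TPM and WT 0.0289 and 0.0579. COL10A1 reached 1 TPM in only 3 libraries and passed the TPM limit through these KO IWP2 libraries, so its value is no separate support. With a pseudocount of 0.1 COL5A3 (adjusted p = 0.169) and COL12A1 (adjusted p = 0.0864) did not pass, and without the filter on low values COL12A1 did not (adjusted p = 0.0507).

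Against CT0.4, COL23A1 differed by 1.27 (adjusted p = 0.0323), COL14A1 by 1.27 (adjusted p = 0.0478), COL4A6 by 0.97 (adjusted p = 0.0181), COL12A1 by -1.90 (adjusted p = 0.00845) and COL5A3 by -2.61 (adjusted p = 0.00291). All 5 were lost with 1 line left out. COL23A1, COL4A6, COL12A1 and COL5A3 reached 0.264, 0.245, 0.165 and 0.132 without WT line 1, and COL14A1 0.27 without KO line 26. With a pseudocount of 0.1 COL5A3 did not pass (adjusted p = 0.0512), and without the filter COL14A1 did not (adjusted p = 0.0641).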

How the results depend on the processing

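Counts here are called members of 49, with the 21 comparisons as in the report. No called direction reversed under any setting run. With 1 line left out, which leaves 1 library in each group of that genotype and assumes that the lone library varies like the other groups, KO against WT gave 0 to 0 in ES, 0 to 0 in IWP2, 1 to 4 in CT0.4 and 2 to 13 in CT1.0 on day 4, and 0 to 2 in IWP2, 0 to 2 in CT0.4 and 4 to 11 in CT1.0 on day 8. In WT on day 8 the range was 7 to 8 for CT0.4 against IWP2, 6 to 7 for CT1.0 against IWP2 and 13 to 15 for CT1.0 against CT0.4, and on day 4 it was 3 to 6 for CT0.4 and 5 to 5 for CT1.0 against IWP2. From ES to day 4 it was 18 to 19 in IWP2, 20 to 20 in CT0.4 and 19 to 23 in CT1.0, and from day 4 to day 8 it was 6 to 7, 16 to 20 and 3 to 4. For the KO effect between labels it was 0 to 0 for CT0.4 with IWP2, 1 to 7 for CT1.0 with IWP2 and 0 to 7 for CT1.0 with CT0.4.

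Fitting only the libraries compared, which leaves few degrees of freedom, gave 0 for KO against WT in CT0.4 and CT1.0 on day 4 and in IWP2 and CT1.0 on day 8. It gave 7, 7 and 9 between the WT labels on day 8 and 2 and 6 on day 4. Over time it gave 19 in IWP2 and 19 in CT0.4 from ES to day 4, and 9, 17 and 6 in IWP2, CT0.4 and CT1.0 from day 4 to day 8. It gave 0 for the KO effect of CT1.0 against either other label. A minimum absolute log2 fold change of 1 left 1, 1, 0 and 7 for KO against WT in CT0.4 and CT1.0 on day 4 and IWP2 and CT1.0 on day 8, 9 for CT0.4 against IWP2 on day 8, 6 and 4 for CT0.4 and CT1.0 against IWP2 on day 4, 19 and 19 in IWP2 and CT0.4 from ES to day 4, and 11 and 10 in IWP2 and CT1.0 from day 4 to day 8. Without the filter KO against WT in IWP2 on day 8 gave 2, and with no trend and robust variance CT0.4 on day 8 gave 1. The KO effect of CT1.0 against IWP2 gave 3 with median-ratio scaling, 3 with a pseudocount of 0.1 and 3 without the WT day 4 CT libraries. The cause of these moves was not tested. Of single members' results, median-ratio scaling kept 239 on the same side of the threshold and moved 31 below and 18 above it, a pseudocount of 0.1 moved 6 below and 9 above, no filter 18 and 1, and no trend with robust variance 16 and 8.

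Deviations of same-numbered libraries correlated over genes at -0.0937 to 0.0783 for WT (0 of 21 group pairs above 0.1) and at -0.0572 to 0.204 for KO (8 of 21). KO libraries of 1 line thus deviated together in some groups. Since not every pair was over 0.1, the numbers were not taken to pair the libraries. With the line as a replicate block the day 8 comparison of KO with WT in CT1.0 again gave 13. Over all comparisons 265 member results kept their side, 5 moved below and 4 above the threshold. For KO against WT this block takes out spread between lines that belongs to the error, so its calls there are no further support. Sequencing depth is unknown for TPM, and 2 libraries per group limit every test.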
